A study of Arabidopsis thaliana with 18 samples.

Results

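The Arabidopsis chloroplast genome was represented in the poly(A) RNA libraries by 133 loci, taken as every locus whose identifier starts with ATCG, of 33602 loci in all. The libraries came from whole Arabidopsis thaliana seedlings of 3 genotypes under 2 treatments, with 3 libraries in each of 6 groups. The genotypes were the wild type (WT, Col-0), ahl10-1 (a T-DNA insertion, Salk_073165, in the gene of an AT-hook DNA-binding protein) and rrp6l1-2 (a T-DNA insertion, Salk_027601, in the gene of a relative of the exosome nuclease RRP6). All seedlings grew for 7 days under continuous light on half-strength medium with no sugar. They were collected 96 h after transfer, at -0.25 MPa (control) or on agar with polyethylene glycol at -0.7 MPa (low water potential, called stress). Each mutant is 1 insertion allele. The insertions were visible in the counts: AHL10 lay at 45.1 to 64.6 CPM (reads scaled to library size) in WT and 20.9 to 32.6 CPM in ahl10-1, and RRP6L1 at 25.3 to 29.1 CPM in WT and 3.67 to 8.97 CPM in rrp6l1-2.

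The chloroplast genome is a small circular remnant of a cyanobacterial genome. It encodes core subunits of the photosystems, the cytochrome b6f complex, the ATP synthase, the NDH complex and Rubisco, and part of the machinery that expresses them, while most chloroplast proteins are encoded in the nucleus. Unlike nuclear mRNAs, chloroplast transcripts carry no stable poly(A) tail. Short A-rich tails are added to chloroplast RNA during its decay, so selection on oligo-dT recovers only a remainder of these RNAs, and levels here are levels in poly(A)-selected libraries rather than in total chloroplast RNA.

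The files name the loci by identifier only. Matching their lengths and order to the RefSeq annotation of the chloroplast (assembly TAIR10.1, called Pltd, 154478 bp) gave a gene name to 108 of the 133 loci. Of the other 25, 15 had a length found only among tRNA or rRNA genes and 10 matched no length, and these are given by identifier. The inverted repeat, a 26264 bp stretch present at both Pltd:84171-110434 and Pltd:128215-154478, holds 13 locus pairs that could be matched by name or length, and the files divided their reads unevenly between the copies: rpl23 had all its reads in 1 copy in 8 libraries and an equal split in 10. The copies of these 13 pairs were therefore summed for levels, which left 120 entries, called transcripts here. Other loci whose reads mapped to several places, such as ATCG00930 and ATCG01200 (99.5% and 99.4% of their reads), were not paired and stand as separate entries. By locus order these 2 loci, both 72 bp, lie between rrn16S and trnA in the 2 repeat copies. Their reads were equal in WT control 1 (199 each) and WT control 3 (227 each). They look like copies of 1 tRNA gene, so the 120 entries divide some genes.

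Bases that oligo-dT can pair with also occur inside these genes. The longest run of A on the coding strand is shown in capitals, with 15 bases on each side, for RNA polymerase subunits and accD, which have long runs and low levels, for atpB, and for the abundant rrn23S, rbcL and psbA, which have short ones. All are 5′ to 3′ on the gene's own strand.
rpoA, Pltd:78080-78123, minus strand: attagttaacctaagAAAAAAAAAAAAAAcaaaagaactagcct
rpoC2, Pltd:17911-17953, minus strand: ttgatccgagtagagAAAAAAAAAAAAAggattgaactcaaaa
accD, Pltd:57357-57399, plus strand: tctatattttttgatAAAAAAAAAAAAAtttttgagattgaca
atpB, Pltd:54086-54125, minus strand: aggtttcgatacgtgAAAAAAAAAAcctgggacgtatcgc
rrn23S, Pltd:104959-104995, plus strand: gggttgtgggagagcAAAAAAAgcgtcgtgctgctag
rbcL, Pltd:55489-55523, plus strand: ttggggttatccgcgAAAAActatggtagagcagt
psbA, Pltd:741-774, minus strand: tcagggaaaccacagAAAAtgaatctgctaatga
Across 73 matched protein-coding transcripts with reads, the 10 with a run of 9 or more A had a median of 0.510 RPKM (a level per length, in reads over gene length and library size; range 0.186 to 9.01), and the 63 with shorter runs a median of 4.32 RPKM (range 0.130 to 61.7). Spearman's rho between run length and mean RPKM was -0.40, as a description over genes that share the same libraries and that also differ in length and base composition. Over all 95 matched transcripts with reads, tRNAs and rRNAs included, rho was -0.07.

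The sequences that carry the clearest differences with treatment are the neighbouring atpB and atpE genes, for the beta and epsilon subunits of the ATP synthase. Their coding sequences overlap by 4 bases, shown in capitals, where the stop codon of atpB runs into the start codon of atpE.
atpB and atpE overlap, Pltd:52632-52691, minus strand: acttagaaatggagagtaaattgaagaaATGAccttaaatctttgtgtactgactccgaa
A second gene, called lower under stress in both mutants, is psbI, for a small subunit of the photosystem II core. In WT it was not called and its stress and control libraries overlapped. The gene is shown whole with its start and stop codons in capitals.
psbI, Pltd:7583-7693, plus strand: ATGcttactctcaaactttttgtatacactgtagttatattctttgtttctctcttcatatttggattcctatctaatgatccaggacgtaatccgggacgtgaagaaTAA

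Chloroplast loci took a small and variable share of the reads, 0.102% to 0.589% per library (median 0.193%). Library totals were 57996104 to 68555138 reads, of which 63266 to 341648 fell on chloroplast loci, and 108 to 120 of the 133 loci had reads in a given library. In all, 92 loci had reads in every library. No reads were listed in any library for 3 loci: ATCG00010 trnH, ATCG00260 trnT and ATCG01000, a partial copy of ycf1. For trnH and trnT a count of 0 allows up to 0.0438 to 0.0517 CPM per library. ATCG01000 lies in the inverted repeat and shares its sequence with the end of ycf1 (ATCG01130), which had 9.38% multi-mapped reads. Its count of 0 may rest on how shared reads were assigned, so it sets no limit on the level. For 37 loci over 90% of reads mapped to several places, among them both copies of rrn23S, rrn16S, rpl2 and rps7, so which copy they came from is uncertain.

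Ribosomal RNA dominated what was recovered. It took 87.9% of the chloroplast reads over all libraries (79.9% to 92.1% per library), protein-coding loci took 7.22% to 17.8% and tRNA loci 0.314% to 1.33%. Per length, rrn23S and rrn16S, the RNAs of the large and small ribosomal subunits, were highest at a mean of 549 RPKM (184 to 1161) and 533 RPKM (167 to 1095). The smaller rrn4.5S lay at 49.1 RPKM and rrn5S at 5.93 RPKM. The tRNA gene trnA, which lies with its intron between the rRNA genes, reached 78.4 RPKM. ATCG01200 and ATCG00930, both of a length found only among tRNA or rRNA genes, were listed at 70.1 and 20.8 RPKM. Which locus their multi-mapped reads came from is uncertain. As likely copies of 1 gene they were not summed, so neither value is the level of that gene. Class medians ran from 291 RPKM over 4 rRNAs to 0.397 RPKM over 8 other proteins, as the plot of mean RPKM by class shows.

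**Figure D1:**
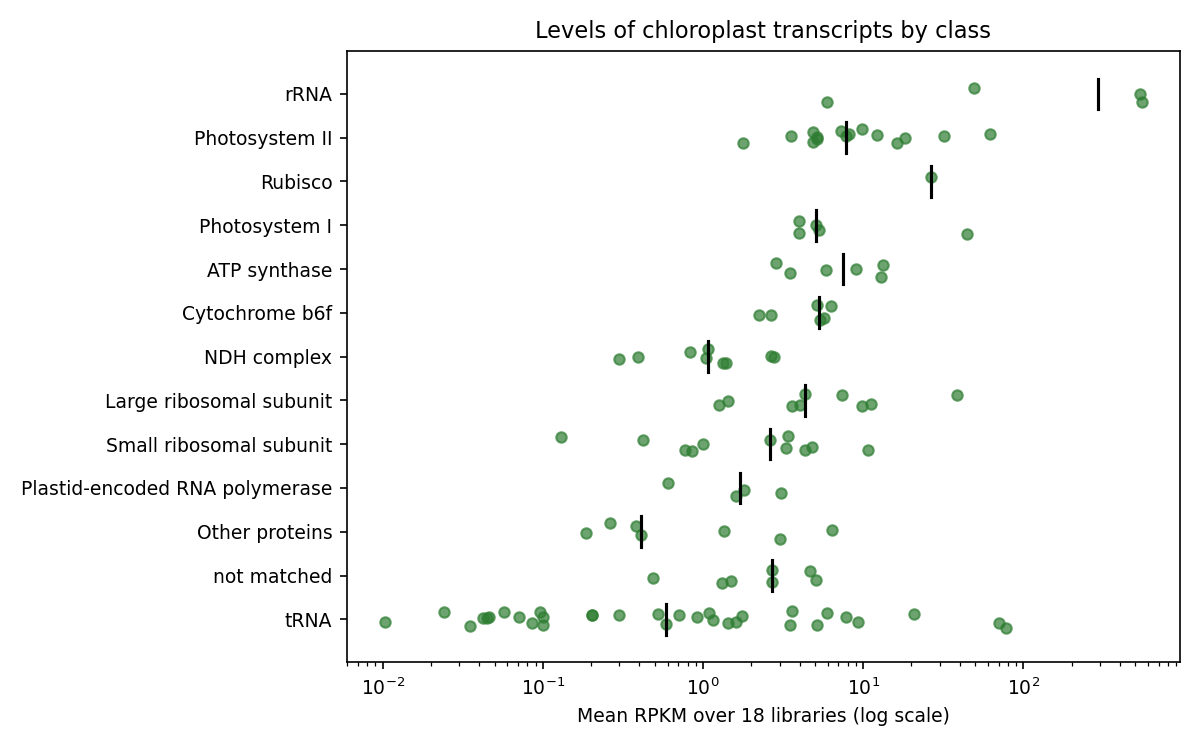
Mean RPKM of each chloroplast transcript over 18 libraries, on a log scale, by class; each point is 1 transcript with matched repeat copies summed, transcripts at 0 are not drawn, and vertical bars are medians of the points drawn. The rRNA points reach 549 RPKM, psbA is the highest photosystem II point at 61.7 RPKM, and the NDH complex lies around 1.07 RPKM.

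Among protein-coding transcripts, psbA and psaJ of the photosystems had the highest means. In photosystem II, the water-splitting complex (15 transcripts, median 7.81 RPKM), psbA, for the D1 reaction centre protein that is replaced as light damages it, had the highest mean at 61.7 RPKM (lowest 18.8, median 37.1, highest 158). By reads it was followed by psbC (9.81 RPKM) and psbB (5.14 RPKM), for the inner antenna proteins, and by level by psbM (32.1 RPKM) and psbJ (18.2 RPKM), for small subunits. In photosystem I (5 transcripts, median 5.08 RPKM), psaJ, for a small subunit, reached 44.5 RPKM, while psaA and psaB, for the paired reaction centre proteins, had 3.96 and 5.30 RPKM. The single Rubisco gene of this genome, rbcL, for the large subunit of the carbon-fixing enzyme, had 26.5 RPKM (10.9 to 51.3). In the ATP synthase (6 transcripts, median 7.43 RPKM), atpH, atpE and atpB had 13.2, 12.9 and 9.01 RPKM. In the cytochrome b6f complex, which passes electrons between the photosystems (6 transcripts, median 5.26 RPKM), petB and petD had 5.41 and 5.12 RPKM. The NDH complex, which returns electrons to the plastoquinone pool (9 matched transcripts), was lower, at a median of 1.07 RPKM, with ndhJ and ndhK at 2.79 and 2.67 RPKM. The 10 loci that matched no length, such as ATCG00890 and ATCG01050, stand in no protein class, so the classes may lack members.

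Transcripts of the gene expression machinery spread widely. Large ribosomal subunit proteins had a median of 4.32 RPKM over 9 transcripts, led by rpl32 at 38.7 RPKM, with rpl16 at 11.2 and rpl2 at 7.34 RPKM. Small subunit proteins had a median of 2.61 RPKM over 11 transcripts, led by rps14 at 10.6 RPKM. The 4 subunits of the plastid-encoded RNA polymerase ran from 0.601 RPKM for rpoC2 to 3.07 RPKM for rpoB. Of the remaining proteins, clpP, for the catalytic subunit of the stromal Clp protease, was highest at 6.38 RPKM, and ycf2, the longest, was at 0.186 RPKM.

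The library numbered 3 had the highest chloroplast share in each of the 6 groups. The shares were 0.263%, 0.165% and 0.408% in the WT control libraries numbered 1, 2 and 3, and 0.196%, 0.182% and 0.589% in the WT stress libraries. They were 0.487%, 0.122% and 0.506% in ahl10-1 control and 0.148%, 0.102% and 0.464% in ahl10-1 stress. They were 0.190%, 0.179% and 0.482% in rrp6l1-2 control and 0.176%, 0.132% and 0.369% in rrp6l1-2 stress. The stress and control libraries overlapped in every genotype, and the first ahl10-1 control library was nearly as high as the third. The labels do not say what a replicate number shares beyond a separate biological experiment.

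No difference in share between treatments passed a test. It was 0.279 ± 0.122% at control and 0.322 ± 0.231% under stress in WT (SD, n = 3 each; exact two-sided permutation test, p = 0.8), where 0.10 is the smallest p that 3 against 3 allows. It was 0.371 ± 0.217% and 0.238 ± 0.197% in ahl10-1 (exact permutation p = 0.4), and 0.284 ± 0.172% and 0.226 ± 0.126% in rrp6l1-2 (exact permutation p = 0.5). These tests take no account of the replicate numbers. Between libraries of the same number, the share was lower under stress in 3 of 3 pairs in ahl10-1 and in 3 of 3 in rrp6l1-2 (exact permutation p = 0.25 in both with the replicate block, the smallest that 3 pairs allow), and in 1 of 3 in WT (exact permutation p = 0.75). With labels permuted within genotype, the difference over all genotypes was -0.0491 percentage points (n = 9 each, exact permutation p = 0.537, and 0.355 with the replicate block). In WT the difference turned negative without the libraries numbered 3 (-0.0249 points, an alternative chosen after seeing the data) and in protein-coding loci alone (-0.00140 points, also chosen after seeing the data). It also turned negative without WT control 2 (-0.0132) or WT stress 3 (-0.0897), and in rrp6l1-2 it turned positive without control 3 (0.0416). In whole seedlings, fewer green cells and less chloroplast RNA per cell cannot be told apart. For comparison, the 146 mitochondrial loci took 0.0266% at control and 0.0453% under stress over all genotypes (exact permutation p = 0.00025, the smallest that these permutations can give), higher in the mean of each genotype.

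**Figure D2:**
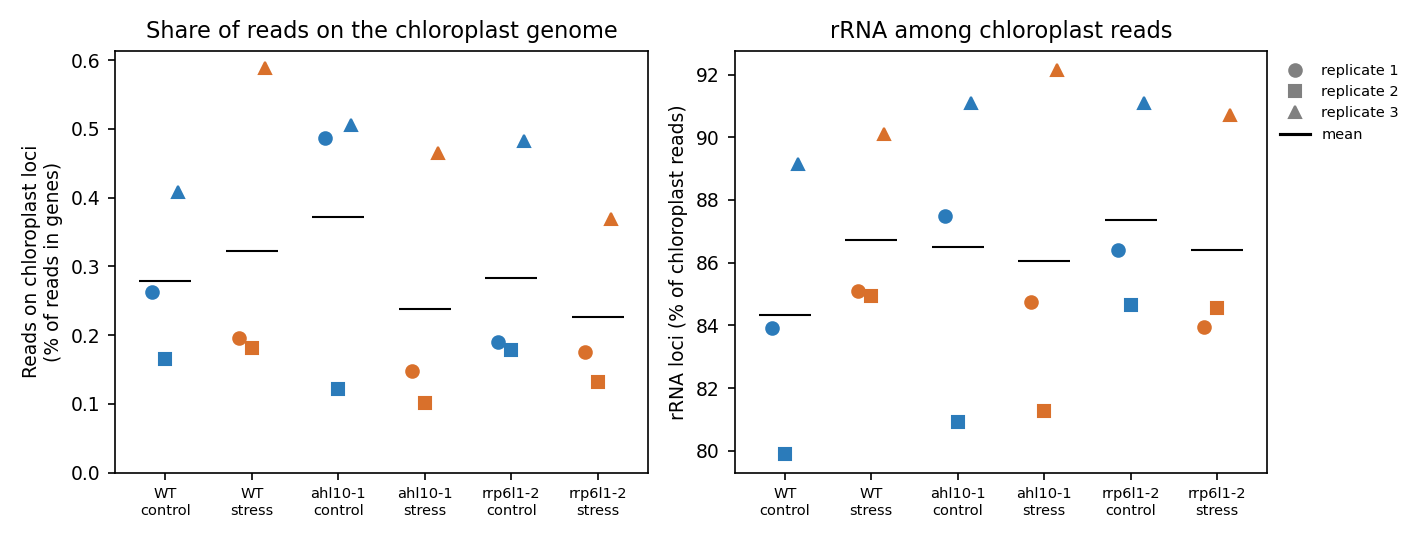
Left, reads on chloroplast loci as % of reads in genes; right, rRNA loci as % of chloroplast reads (axis not from 0); points are libraries by replicate number, bars are means of 3. The triangles, libraries numbered 3, are highest in all 6 groups in both panels, with shares up to 0.589% and rRNA up to 92.1%.

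The excess in the libraries numbered 3 was unequal among the transcripts. Averaged over the 6 groups, the level in the library numbered 3 over the mean of the other 2 was 1.52 on the log2 scale for rrn23S, 1.59 for rrn16S, 1.55 for psbA and 1.00 for rbcL. The difference was 0.11 for rpoB, 0.22 for atpB, 0.00 for atpE, -0.24 for rpl32 and -0.54 for psbM. Class medians over transcripts with at least 30 reads per library on average ran from 1.30 for 4 rRNAs, 0.79 for 5 transcripts of photosystem I, 0.71 for 5 of cytochrome b6f and 0.67 for 14 of photosystem II, through 0.41 for 6 of the ATP synthase and 0.19 for 4 of the RNA polymerase, to -0.19 for 7 of the large ribosomal subunit. Of 77 such transcripts, 3 (rrn23S, rrn16S and rrn4.5S) were highest in number 3 in all 6 groups, or 3.90%, beside 1.04% of 20929 loci of all genomes. No protein-coding transcript of 62 was. These values describe the libraries, and their source was not tested.

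**Figure D3:**
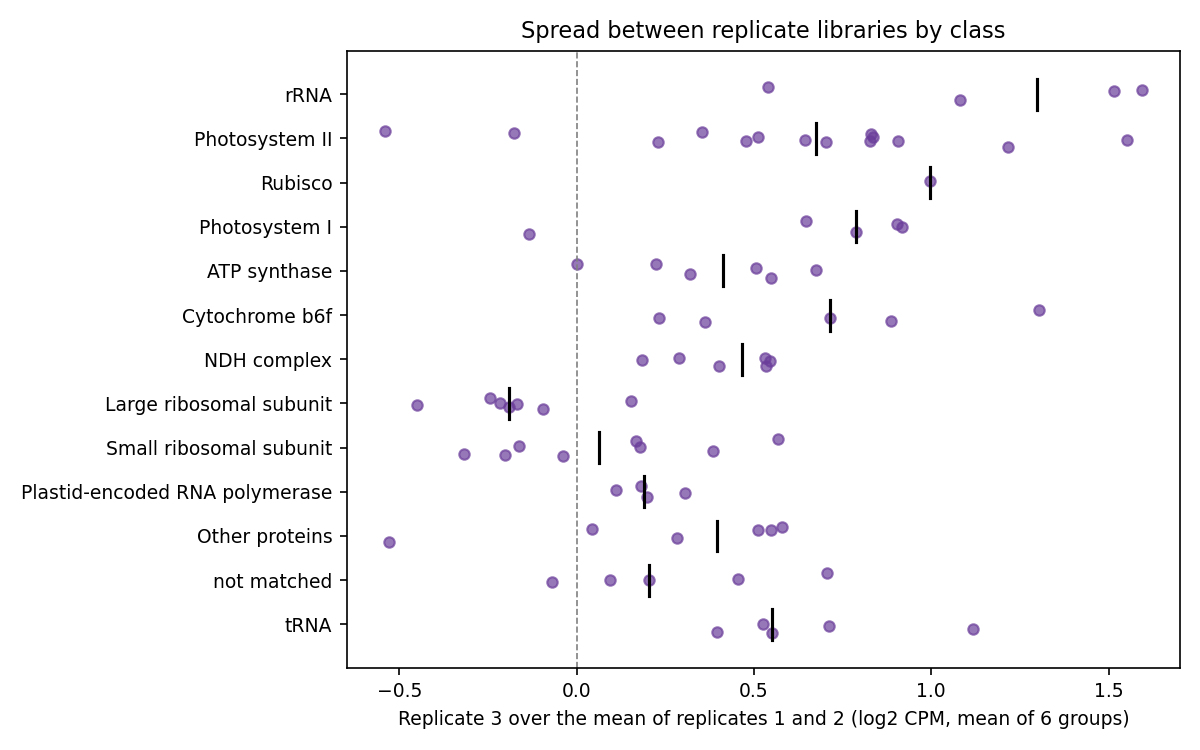
Level in the library numbered 3 over the mean of the other 2 (log2 CPM, averaged over 6 groups), by class, for transcripts with at least 30 reads per library; bars are class medians. rRNA lies highest with a median of 1.30 and the large ribosomal subunit lowest at -0.19.

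Spread between replicates was wider for chloroplast loci than for all genes. The median biological coefficient of variation was 36.3% over the 106 chloroplast loci with enough reads to test, beside 10.6% over all 22795 genes tested. These values come from the edgeR fit without the replicate block, so they include any difference that same-numbered libraries share. Repeat copies stand apart in this fit, with 160% for the rpl2 copy ATCG00830. The other 27 loci, 23 of them tRNA loci, had too few reads. Among loci with under 50% multi-mapped reads, the median was 41.2% for photosystem II and 40.7% for photosystem I, and 18.5% for the large ribosomal subunit and 19.0% for the RNA polymerase. psbA stood at 70.1% and rbcL at 47.5%, while rpl14 (13.2%), atpB (13.7%) and clpP (14.6%) had the lowest values of the 106 loci.

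At low water potential the ATP synthase transcripts atpB and atpE fell in all 3 genotypes. Their libraries are given as CPM scaled for composition (TMM). atpB stood at 19.5, 19.4 and 16.6 CPM in WT control and 11.6, 13.3 and 12.7 CPM in WT stress. It stood at 16.4, 18.1 and 20.6 CPM in ahl10-1 control and 7.74, 9.13 and 12.2 CPM in ahl10-1 stress. It stood at 16.2, 17.3 and 23.1 CPM in rrp6l1-2 control and 9.04, 9.30 and 11.1 CPM in rrp6l1-2 stress. Every stress library of a genotype lay below every control library of that genotype. The means went from 18.5 ± 1.64 to 12.5 ± 0.855 CPM in WT (SD, n = 3), a log2 fold change of -0.56 ± 0.16 (SE; edgeR adjusted p = 0.0145). They went from 18.4 ± 2.12 to 9.70 ± 2.31 CPM in ahl10-1 (-0.92 ± 0.16; edgeR adjusted p = 0.000404) and from 18.9 ± 3.67 to 9.80 ± 1.11 CPM in rrp6l1-2 (-0.94 ± 0.16; edgeR adjusted p = 0.00039). Without the libraries numbered 3 the log2 values were -0.64, -1.03 and -0.87. The WT call was lost without WT control 1 (-0.52; edgeR adjusted p = 0.0531) or WT stress 1 (-0.50; 0.0727).

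atpE, the overlapping neighbour, stood at 8.18, 8.80 and 5.56 CPM in WT control and 4.57, 6.27 and 4.26 CPM in WT stress, where 1 stress library exceeded the lowest control. It stood at 6.84, 7.59 and 7.04 CPM against 3.40, 3.06 and 4.05 CPM in ahl10-1. It stood at 5.68, 6.15 and 7.15 CPM against 3.36, 3.46 and 4.44 CPM in rrp6l1-2. In both mutants the groups did not overlap. The log2 fold changes were -0.58 ± 0.18 in WT, -1.03 ± 0.19 in ahl10-1 and -0.75 ± 0.18 in rrp6l1-2 (edgeR adjusted p = 0.0281, 0.000564 and 0.00654). The WT call was lost without WT control 1 or 2 or WT stress 1 or 3, with edgeR adjusted p of 0.0991, 0.123, 0.114 and 0.115, and with only the 2 groups compared in the fit (edgeR adjusted p = 0.0809). Because the genes overlap and share transcripts, reads near the junction cannot be assigned to either with certainty, and the pair is not 2 independent observations. The other ATP synthase loci did not pass: atpA, for the alpha subunit, had -0.24, -0.56 and -0.37 in the 3 genotypes.

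**Figure D4:**
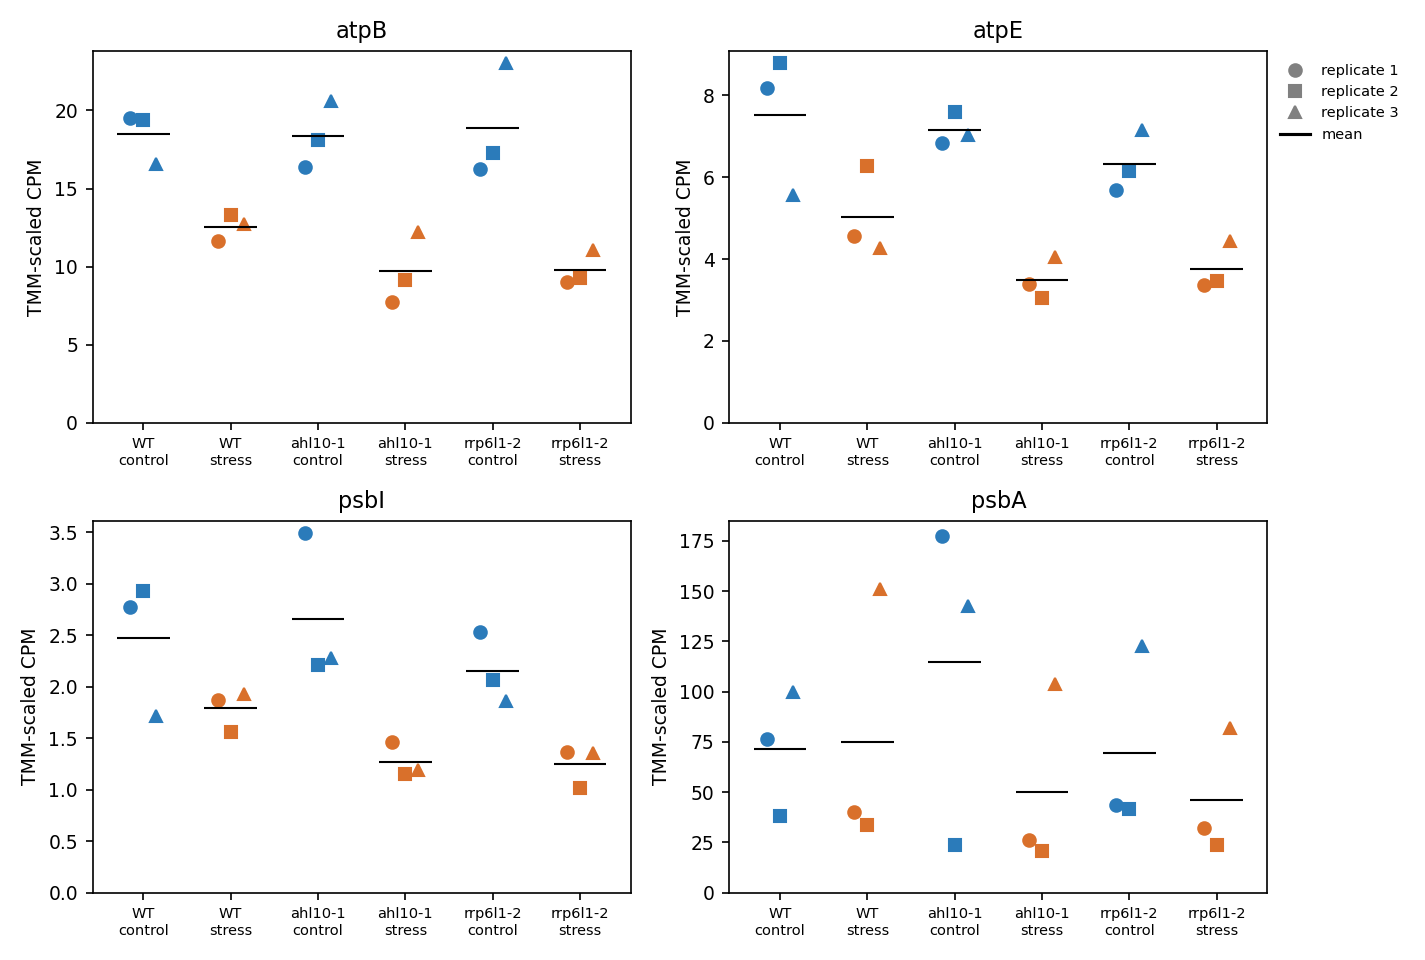
TMM-scaled CPM of atpB, atpE, psbI and psbA in each library; points are libraries by replicate number, blue for control and orange for stress, and bars are means of 3. All stress points of atpB lie under the control points of the same genotype, while psbA ranges from 20.9 to 177 CPM with overlapping groups.

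Counted over the tested loci, 2 of 106 were called in WT (1.89%; edgeR adjusted p under 0.05), both lower, beside 26.1% of all 22795 genes (13.4% lower and 12.6% higher). In ahl10-1 11 were called (10.4%), all lower, beside 30.1% of all genes (14.4% lower and 15.7% higher), and in rrp6l1-2 4 lower and 1 higher (4.72%), beside 29.5% (14.7% lower and 14.9% higher). The median log2 fold change of the 106 loci was -0.17 in WT, -0.71 in ahl10-1 and -0.28 in rrp6l1-2, where the median of all genes was -0.00, 0.01 and 0.02. Fold changes were below 0 for 70, 98 and 87 of the 106 loci. The loci share their libraries and their spread, so these counts describe the libraries. Libraries of the 2 treatments did not overlap, with stress lower, for 12 loci in WT (all genes 21.3%), 17 in ahl10-1 (18.6%) and 13 in rrp6l1-2 (21.5%). With stress higher there were 2 in WT (all genes 21.9%), 1 in ahl10-1 (21.6%) and 2 in rrp6l1-2 (23.1%).

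The WT count became 0 without WT control 1 or WT stress 1, 1 without WT control 2, 3 without WT stress 3 and 5 without WT control 3. The ahl10-1 count became 4 without its control 1, 24 without control 2, 6 without control 3, 7 without stress 1 and 6 without stress 2. With the replicate number as a block, edgeR called 23 of 106 loci in ahl10-1, 12 more than without it, which then include rbcL, psbD, psbC, psbE, psaC and ndhH. The share of all genes called in these refits is not given here. In the fit of all libraries without the block it was 30.1% in ahl10-1.

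In ahl10-1 the called loci were spread over photosystems, NDH complex and ribosome. psbI stood at 3.49, 2.21 and 2.28 CPM at control and 1.46, 1.16 and 1.19 CPM under stress, without overlap (-1.06 ± 0.23; edgeR adjusted p = 0.00249). psbK, for another small photosystem II subunit and encoded 380 bp upstream of psbI, stood at 2.25, 1.25 and 2.41 CPM against 1.13, 0.816 and 1.32 CPM, with overlap (-0.86 ± 0.26; edgeR adjusted p = 0.021). psaJ stood at 17.8, 7.01 and 7.0 CPM against 4.09, 4.47 and 4.96 CPM (-1.24 ± 0.32; edgeR adjusted p = 0.00808). One control library lay far above the other 2, and without it the log2 value was -0.64 (edgeR adjusted p = 0.0383). ndhJ and ndhC, for NDH subunits, had -0.85 ± 0.27 and -1.34 ± 0.47 (edgeR adjusted p = 0.0233 and 0.04). The ribosomal protein transcript rpl16 stood at 5.43, 6.22 and 4.84 CPM against 4.0, 4.03 and 3.78 CPM, without overlap (-0.48 ± 0.17; edgeR adjusted p = 0.0375). The unnamed loci ATCG00065 and ATCG01050 had -1.30 ± 0.38 and -0.79 ± 0.27 (edgeR adjusted p = 0.0151 and 0.0338).

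Several of these calls rested on single libraries. Leaving out ahl10-1 control 1 ended the calls of psbK (-0.76), ndhJ (-0.78), ndhC (-0.91), rpl16 (-0.50), ATCG00065 (-1.15) and ATCG01050 (-0.53). Those of atpB, atpE, psbI and psaJ held in each of the 16 alternatives run. psbK, ndhC, ATCG00065 and ATCG01050 were also not called without the libraries numbered 3. The call of psbK was also lost without control 3 or stress 2 (-0.69 each), and that of ndhJ without control 3 (-0.82), stress 1 (-0.66) or stress 2 (-0.72). ndhC lost its call without control 3 (-1.37) or stress 1, 2 or 3 (-1.17, -1.53 and -1.36). rpl16 lost its call without control 2 (-0.39) or stress 1, 2 or 3 (-0.51, -0.50 and -0.45). The same held for ATCG00065 without stress 3 (-1.18) and for ATCG01050 without control 3 (-0.69), stress 2 (-0.76) or stress 3 (-0.74). With only the 2 groups compared in the fit, psbK (-0.86), ndhJ (-0.86), ndhC (-1.35) and ATCG01050 (-0.80) were not called (edgeR adjusted p = 0.087, 0.1, 0.0768 and 0.12). With plain library sizes rpl16 (-0.41) and ATCG01050 (-0.72) were not (edgeR adjusted p = 0.0858 and 0.0546). By limma on log2(RPKM + 0.5), ndhC (-0.73), rpl16 (-0.39) and ATCG01050 (-0.52) were not (adjusted p = 0.0676, 0.0742 and 0.108). The direction was the same for these loci in each of the 16 alternative fits. As a share of protein-coding chloroplast reads, however, rpl16 had a mean of 1.64% at control and 1.90% under stress.

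In rrp6l1-2, psbI stood at 2.53, 2.07 and 1.86 CPM at control and 1.36, 1.02 and 1.36 CPM under stress, without overlap (-0.78 ± 0.23; edgeR adjusted p = 0.0188). Without control 1 (-0.65) or stress 2 (-0.66) the adjusted p was 0.0753 or 0.0789. ndhK, for an NDH subunit next to ndhJ and ndhC, stood at 1.64, 2.34 and 2.60 CPM against 1.12, 1.51 and 1.25 CPM (-0.76 ± 0.24; edgeR adjusted p = 0.0272), and lost its call without stress 1 (-0.68), control 2 (-0.73), control 3 (-0.62) or stress 3 (-0.76), and without all libraries numbered 3 (-0.60). clpP was the only locus called higher, at 2.56, 2.49 and 3.04 CPM against 4.24, 3.39 and 3.70 CPM (0.49 ± 0.17; edgeR adjusted p = 0.04), without overlap. Its call was lost without control 1 (0.45), control 2 (0.41), stress 1 (0.38) or stress 3 (0.49), without the libraries numbered 3 (0.60), with no filter on low counts (0.48) and with only the 2 groups compared in the fit (0.48). The clpP control libraries of rrp6l1-2 also lay below all 3 of WT (4.96, 4.65 and 3.62 CPM).

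Summing the repeat copies, an alternative chosen after seeing the data, brought out rpl2, for a core protein of the large ribosomal subunit. It stood at 6.73, 7.20 and 7.55 CPM against 4.13, 4.36 and 5.98 CPM in ahl10-1 (-0.57 ± 0.15; edgeR adjusted p = 0.00733). It stood at 6.74, 7.21 and 9.05 CPM against 5.41, 4.39 and 5.24 CPM in rrp6l1-2 (-0.61 ± 0.15; edgeR adjusted p = 0.00527). Neither copy alone passed. In WT the libraries were 7.51, 9.0 and 7.29 against 6.51, 6.70 and 6.64 CPM, also without overlap.

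**Figure D5:**
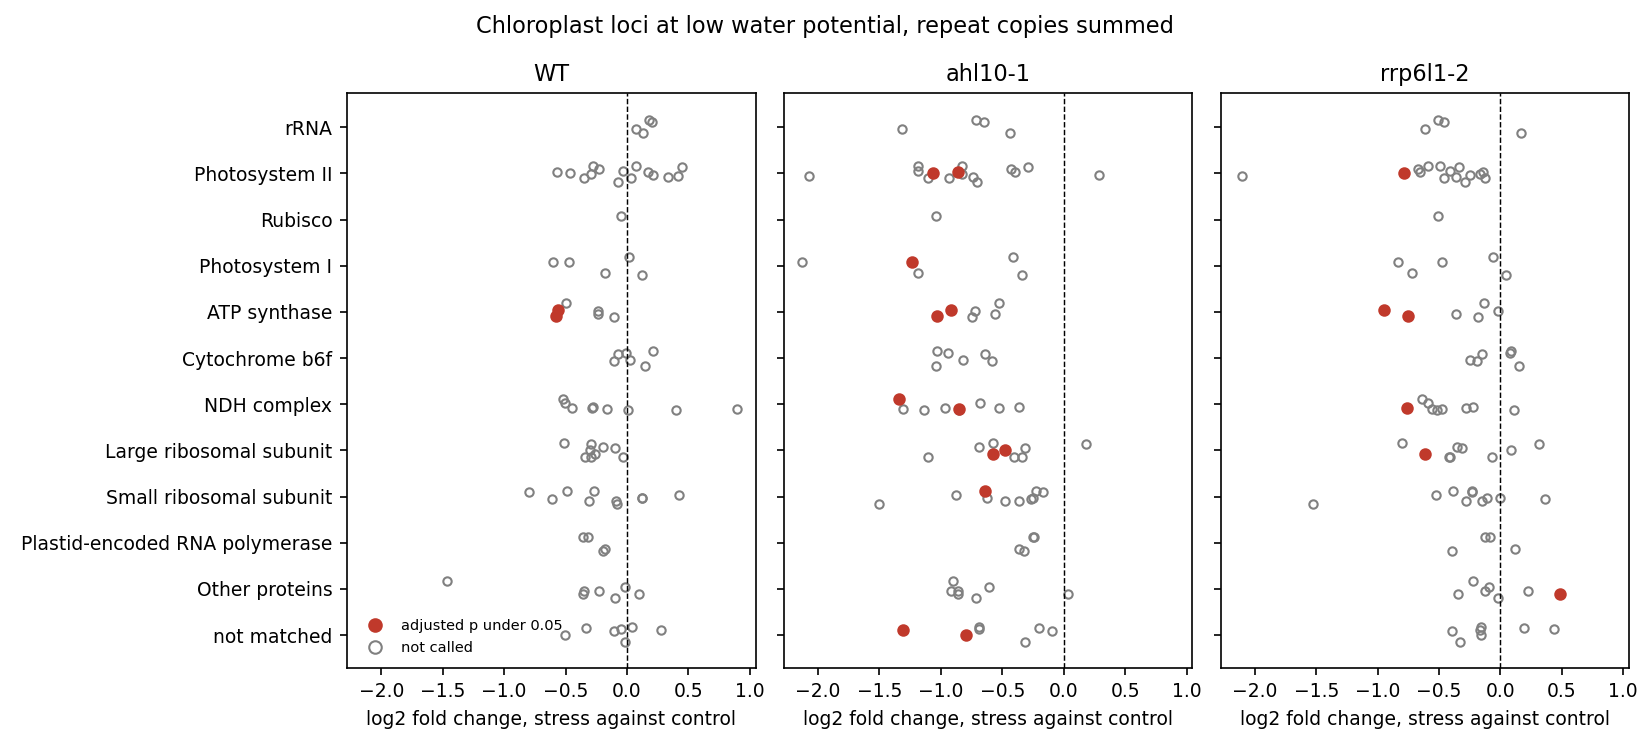
Log2 fold change, stress against control, of chloroplast loci by class in the 3 genotypes, with repeat copies summed and tRNAs left out; filled red points have an edgeR adjusted p under 0.05. The ATP synthase holds 2 red points in each genotype, and in ahl10-1 most points lie left of 0.

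The abundant photosynthesis transcripts psbA and rbcL were not called in any genotype in the fit without the replicate block. psbA stood at 76.2, 38.3 and 99.7 CPM in WT control and 40.4, 33.5 and 151 CPM in WT stress. It stood at 177, 23.8 and 143 CPM against 26.1, 20.9 and 104 CPM in ahl10-1, and at 43.8, 41.5 and 123 CPM against 32.2, 23.5 and 81.9 CPM in rrp6l1-2. The libraries of 1 group differed by up to several-fold and the treatments overlapped. The log2 fold changes were 0.07 ± 0.87, -1.19 ± 0.88 and -0.59 ± 0.88 (edgeR adjusted p = 0.965, 0.342 and 0.649), so a difference of the size seen for atpB was not detectable for psbA. rbcL had -0.05 ± 0.57, -1.04 ± 0.58 and -0.51 ± 0.58 (edgeR adjusted p = 0.962, 0.198 and 0.539). With the block rbcL was called in ahl10-1 (-1.07; edgeR adjusted p = 0.0225), and psbA was not (-1.34; edgeR adjusted p = 0.0511).

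The classes differed in their median. In ahl10-1 the medians ran from -1.18 over 5 loci of photosystem I, -1.09 over 8 rRNA loci with copies apart, -1.04 for rbcL, -0.88 over 6 of cytochrome b6f, -0.85 over 9 of the NDH complex and -0.83 over 15 of photosystem II to -0.29 over 4 of the RNA polymerase. In rrp6l1-2 they ran from -0.52 over 14 tRNA loci, -0.51 for the NDH complex and for rbcL and -0.47 for photosystem I to -0.04 for cytochrome b6f, with -0.11 for the RNA polymerase. In WT they ran from -0.37 for the ATP synthase to 0.21 over 8 rRNA loci. No rRNA, cytochrome b6f or RNA polymerase locus was called in any genotype without the replicate block. With it, 1 copy each of rrn4.5S (-1.48; edgeR adjusted p = 0.0464) and rrn16S (-1.67; edgeR adjusted p = 0.0347) was called lower in ahl10-1. How their reads were divided between the copies varied by library. The first copy held 33.3% to 83.3% of the rrn16S reads, and rrn4.5S had all its reads in 1 copy in 9 libraries. Copies were not summed in the blocked fit, so these calls do not show a change in either rRNA. rpoB, for the beta subunit of the polymerase, stood at 12.6, 15.1 and 10.3 against 8.61, 8.08 and 13.0 CPM in WT, with overlap.

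As a share of protein-coding chloroplast reads, the fall of atpB was less distinct. It was 4.97%, 6.59% and 4.27% against 4.80%, 5.66% and 2.49% in WT and 2.95%, 8.42% and 4.44% against 4.13%, 5.65% and 3.51% in ahl10-1, overlapping in both. It was 6.50%, 6.89% and 5.23% against 3.79%, 5.16% and 3.71% in rrp6l1-2, without overlap. As shares of the same total, atpE and psbI had lower means under stress, but the treatments overlapped in all 3 genotypes. The log2 ratio of the mean shares was -0.271 in WT, -0.368 in ahl10-1 and -0.396 in rrp6l1-2 for atpE. For psbI it was -0.239, -0.227 and -0.504. Within this total psbA alone took 11.1% to 31.9%, so its spread between libraries moves the share of every other transcript. On this scale the stress libraries lay above control without overlap for 4 of 74 transcripts in WT, 6 in ahl10-1 and 8 in rrp6l1-2, and below for 2, 0 and 3, where on the CPM scale most of the loci without overlap were lower. The 74 include the partial ycf1, which has 0 reads. With no difference, 3 against 3 libraries separate in either direction with a probability of 0.10. The counts on this scale were not tested against that rate, and no share of all genes applies to it. None of the 74 transcripts moved in 1 direction without overlap in all 3 genotypes.

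The comparisons of mutants with WT share the WT libraries with the comparisons above and with each other. At control, 0 of 106 loci were called in ahl10-1 by edgeR (all genes 0.0263%), with 2 at an unadjusted p under 0.05 and 2 called by DESeq2. Under stress 0 were called in ahl10-1 (all genes 0.0351%), with 8 at an unadjusted p under 0.05 and 0 by DESeq2. In rrp6l1-2 0 were called by edgeR at control (all genes 0.211%; 5 unadjusted, 1 by DESeq2) and 0 under stress (all genes 0.0834%; 10 unadjusted, 1 by DESeq2). The unadjusted and DESeq2 counts stand without the share of all genes under the same rule, so they are not read as differences. Of the 2 unadjusted at control in ahl10-1, 1 was a tRNA locus, a class with log2 values down to -10.8 where repeat copies stand apart. Under stress the median log2 difference from WT was -0.41 in ahl10-1 and -0.38 in rrp6l1-2, and 95 and 89 of 106 loci were below 0. Libraries did not overlap, with the mutant lower, for 13 loci in ahl10-1 (all genes 5.7%) and 16 in rrp6l1-2 (all genes 5.58%), and with the mutant higher for 0 (all genes 6.24%) and 1 (all genes 8.83%). At control the mutant was lower without overlap for 6 loci in ahl10-1 (all genes 4.7%) and 10 in rrp6l1-2 (11.1%), and higher for 1 (3.03%) and 1 (10.8%).

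The interactions, which test whether the stress effect differed between a mutant and WT, called 0 of 106 loci in both mutants by edgeR, as for all 22795 genes (0%). At an unadjusted p under 0.05 they gave 5 in ahl10-1 and 1 in rrp6l1-2, and DESeq2 called 2 and 0. These counts stand without the share of all genes under the same rule, so they are not read as differences. The 5 were 1 rRNA, 1 tRNA, 2 NDH and 1 unmatched locus, and the 1 in rrp6l1-2 was in the large ribosomal subunit. All these classes but the NDH complex hold repeat copies that stand apart. Whether the division of reads between copies gave these counts was not tested. For atpB the interaction was -0.36 ± 0.22 in ahl10-1 and -0.38 ± 0.22 in rrp6l1-2 (log2 ± SE; edgeR p of 0.124 and 0.103 before adjustment, adjusted p = 1 in both), so the larger folds in the mutants were not shown to differ from WT.

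clpP was the locus nearest to a call between genotypes. At control it had 2.70 ± 0.304 CPM in rrp6l1-2 and 4.41 ± 0.699 CPM in WT (SD, n = 3), without overlap, a log2 difference of -0.71 ± 0.17 (edgeR adjusted p = 0.0992). In the authors' deposited table clpP was lower in rrp6l1-2 at control by -0.52 (adjusted p = 0.0193). It was the 1 called of 75 chloroplast loci with an adjusted p there, beside 893 of 21437 genes. The authors' deposited table for stress called psbM, at -0.40, and ycf1, at -0.40, lower in rrp6l1-2 than in WT. They were the 2 called of 84 chloroplast loci with an adjusted p, beside 282 of 22877 genes. The median log2 value over chloroplast loci was -0.055 in that table and -0.38 in the fit here, so fold sizes are not compared. In the fit here psbM stood at 1.93, 1.98 and 2.34 CPM in rrp6l1-2 stress and 4.80, 8.81 and 3.02 CPM in WT stress, without overlap (-1.41 ± 0.38; edgeR adjusted p = 0.51). For WT stress, the authors' deposited table called 5 of 88 chloroplast loci with an adjusted p, beside 6352 of 23692 genes. The 5 were all lower: atpB (-0.55), atpE (-0.54), psaJ (-0.56), ccsA (-0.89) and ATCG01050 (-0.48).

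The nuclear genes that serve chloroplast gene expression were counted beside the 26.1%, 30.1% and 29.5% of all genes called under stress in WT, ahl10-1 and rrp6l1-2. Of 20 nuclear genes for plastid transcription, edgeR called 1 in each genotype. FSD3, for a superoxide dismutase bound to the plastid polymerase, rose in WT (0.37 ± 0.12; adjusted p = 0.0361) and in ahl10-1 (0.47 ± 0.12; adjusted p = 0.00835). SIG2, for a sigma factor that directs the plastid polymerase to promoters, fell in rrp6l1-2 (-0.42 ± 0.14; adjusted p = 0.0308). Of 13 genes for plastid RNA processing and decay, 2 fell in WT, 2 in ahl10-1 and 5 in rrp6l1-2, with median log2 fold changes of -0.22, -0.27 and -0.24. Called in both WT and ahl10-1 were RNEE/G, for the plastid endonuclease RNase E (-0.29 ± 0.09 and -0.25 ± 0.09; edgeR adjusted p = 0.0315 and 0.0474), and PGR3, for an RNA-binding pentatricopeptide protein. PGR3 had -0.32, -0.44 and -0.50 in WT, ahl10-1 and rrp6l1-2 (edgeR adjusted p = 0.0475, 0.00801 and 0.00393). In rrp6l1-2 CSP41A, for a plastid RNA-binding protein, was also lower (-0.62 ± 0.18; edgeR adjusted p = 0.0184). None of either list was called between mutants and WT. Of 52 nuclear photosynthesis genes, which together took 8.08% to 14.2% of the reads of a library, edgeR called 2 higher and 2 lower in WT, 3 and 4 in ahl10-1, and 2 and 5 in rrp6l1-2, beside the same 26.1%, 30.1% and 29.5% of all genes.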

How the data were processed

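The authors deposited 1 table per library with, per the file headers, the expected count of reads per locus, RPKM, the fraction of reads mapping to several places and other gene properties. A further set of deposited tables holds the authors' comparisons, as log2 fold changes with standard errors, a score (test statistic), a p-value and other columns. Bowtie2, DESeq2, CASAVA, bcl2fastq 1.8.4 and the build TAIR10 stand in the submitters' processing notes. How reads were counted, and whether by strand, is not given in the sources used here, and antisense reads cannot be told apart. The deposited RPKM imply a denominator 7.15% to 8.20% above the reads in genes.

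Rounded expected counts went into edgeR 4.0.16 (R 4.3.3; quasi-likelihood test, robust, TMM factors 0.901 to 1.07, filterByExpr). All 18 libraries entered 1 fit of 6 group means, with 12 residual degrees of freedom, and p-values were adjusted by Benjamini-Hochberg over 22795 genes at 0.05. SE is |log2 fold change| over the square root of F. DESeq2 1.42.0, limma 3.58.1 on log2(RPKM + 0.5), other scalings, no filter and leaving out each library were alternatives. The 18 replicate pairs held 0 identical libraries. Intervals for a count of 0 use 3 reads and cover counting error only.

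Same-numbered libraries deviated together (every r above 0.1) in ahl10-1 stress against control (smallest r 0.205), rrp6l1-2 stress against control (0.123) and rrp6l1-2 against WT at control (0.198). The labels give no origin for the pairing. Named loci are the 12 with the highest RPKM, up to 6 called in each direction, up to 3 per class by reads, and loci without reads or with multi-mapped reads; others named (such as rpl2, psbJ and rrn5S) were chosen after their values were seen. The members and lists were chosen with earlier results of these data known. 1 called locus is not reported here by name.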

Additional observations from a re-analysis of the deposited data

How the results depend on the processing

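Counts of called loci at stress stayed within 1.5 times under plain library sizes, sizes without organelle loci, no filter, DESeq2, unique reads, limma and summed copies. With only the groups compared, 6 loci were called in WT, 1 in ahl10-1 against WT at control and 1 in rrp6l1-2 against WT under stress. The replicate block gave 23 in ahl10-1, and changed no other count by over 1.5 times. Without the libraries numbered 3 (chosen after seeing the data) WT had 5. DESeq2 called 2 loci in ahl10-1 and 1 in rrp6l1-2 against WT at control, 1 in rrp6l1-2 under stress and 2 in the ahl10-1 interaction. Leaving out each library gave 0 to 5 loci in WT stress, 4 to 24 in ahl10-1, 4 to 5 in rrp6l1-2 and 0 in the mutant comparisons and interactions. The WT chloroplast share difference was -0.00121 points with unique reads, -0.00140 in protein-coding loci and -0.0249 without the libraries numbered 3. Leaving out each library moved it from -0.0897 to 0.114 in WT, -0.258 to -0.0652 in ahl10-1, -0.129 to 0.0416 in rrp6l1-2 and -0.0936 to -0.0160 over all genotypes. The causes were not tested. Counts of called loci in these alternatives stand without the share of all genes in the same fits. No call of a named locus reversed in these fits. Depth limits the 27 untested loci, mostly tRNAs.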
